A study of Mus musculus with 24 samples.

Results

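Wnt proteins are secreted, lipid-modified growth factors that bind Frizzled receptors on neighbouring cells. In the canonical branch a Frizzled and its co-receptor stabilise β-catenin, which then acts with TCF/LEF factors on target genes such as Axin2, while other Wnts act through planar polarity and calcium pathways without β-catenin. R-spondins strengthen the response by keeping Frizzleds at the cell surface, and secreted antagonists weaken it. SFRPs, Frzb and Wif1 bind Wnts directly, and the Dickkopfs Dkk1 and Dkk2 block the co-receptor. In the developing lung the pathway takes part in patterning of the mesenchyme and renewal of the alveolar epithelium, and in the retina it takes part in vessel growth and patterning of the eye margin.

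The 41 genes described here were chosen by name: 18 Wnt ligands, 9 Frizzled receptors, the 4 R-spondins, 9 secreted antagonists (Sfrp1, Sfrp2, Sfrp4, Sfrp5, Frzb, Dkk1, Dkk2, Dkk3 and Wif1) and Axin2. All 41 were found by Ensembl identifier among the 36109 genes of the lung table and the 36595 genes of the retina table. RNA was sequenced from neonatal mice, wild-type (WT) littermates and GSDMD-KO mice on a C57/B6 background, whose Gsdmd gene carries a CRISPR deletion in an exon. Lungs came from pups kept in 85% oxygen (hyperoxia) or 21% oxygen (room air) from postnatal day 1 to 14 and were collected at day 15. Retinas came from pups kept in 75% oxygen from day 7 to 12 and returned to room air, or kept in room air, and were collected at day 18. Each tissue had 4 groups of 3 mice, named by genotype (WT or KO) and exposure (RA for room air, O2 for hyperoxia): WT-RA, WT-O2, KO-RA and KO-O2.

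Libraries held 28763661 to 29604254 counts in the lung and 24863257 to 29093035 in the retina, of which the 41 genes took 0.0780% to 0.110% and 0.0369% to 0.0510%. Levels are given as CPM, the reads of a gene relative to all reads of its library after TMM scaling. Gsdmd itself averaged 41.4 CPM in WT-RA and 34.4 CPM in WT-O2 lungs against 23.98 CPM in KO-RA and 13.7 CPM in KO-O2 lungs, and the KO lungs did not overlap with WT lungs of the same exposure. In the retina its means were 2.40, 4.15, 0.801 and 1.83 CPM in the same order, and WT and KO samples overlapped. A count per gene does not show the deletion itself. Of the WT-RA, WT-O2, KO-RA and KO-O2 mice, 0, 1, 2 and 3 of 3 were male by Y-linked transcripts in the lung and 3, 1, 3 and 1 in the retina, so sex partly moved with genotype in the lung and with exposure in the retina. Lung libraries held 12616 to 21140 CPM of 5 alveolar type 2 markers and retina libraries 42400 to 66010 CPM of 5 photoreceptor markers. Several libraries carried transcripts of neighbouring tissue. Of the KO-O2 lungs, replicate 1 had 159.6 CPM of 5 liver markers against at most 2.51 elsewhere, and retinas WT-RA replicates 2 and 3 and KO-RA replicate 3 had 581, 1948 and 1042 CPM of 4 lens markers against at most 9.04 in the other 9.

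To compare levels between genes, CPM was divided by the length of the gene's exons in kilobases. In WT-RA lungs Dkk3, a divergent Dickkopf, was highest of all 41 at 44.9 CPM per kb, and its group means ran from 41.2 to 51.7. Among the receptors Fzd1 was at 26.8 (26.0 to 32.7 over the 4 groups), Fzd2 at 19.4 (18.6 to 33.4) and Fzd7 at 13.4 CPM per kb (11.6 to 13.6). The most abundant ligands were Wnt11 at 12.0 (9.61 to 12.0) and Wnt5a at 10.2 (9.83 to 13.7), which are best known for β-catenin-independent signaling, and Wnt2, a mesenchymal Wnt, at 9.47 CPM per kb (7.62 to 11.5). Rspo4 at 3.61 and Rspo1 at 2.58 CPM per kb stood above Rspo2 at 0.575 and Rspo3 at 0.414. After Dkk3, the antagonists were led by Wif1 at 7.52 and Sfrp2 at 4.69 CPM per kb, and the target gene Axin2 was at 11.4. The order rests on group means, and differences between neighbouring genes were not tested.

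In the lung 34 of the 41 genes passed the filter on low counts and were tested with edgeR's quasi-likelihood test. Wnt1, Wnt3, Wnt8b, Wnt10a, Wnt16, Fzd9 and Dkk1 did not pass, and none of them exceeded 0.688 CPM in any lung. To be called, a gene had to differ 2-fold or more and pass both an unadjusted p of 0.05 and a Benjamini-Hochberg adjusted p of 0.1. Most of the called genes encode secreted regulators. In WT lungs 12 of the 34 were called, 6 higher and 6 lower, against 11.6% of all 16819 tested genes (5.04% higher and 6.57% lower). By role these were 3 of 13 ligands, 0 of 8 receptors, 4 of 4 R-spondins and 5 of 8 antagonists. In GSDMD-KO lungs 9 were called, 6 higher and 3 lower, against 10.6% of all tested genes (4.57% higher and 6.03% lower). These were 2 of 13 ligands, 0 of 8 receptors, 2 of 4 R-spondins and 5 of 8 antagonists. All 9 called in GSDMD-KO lungs were among the 12 called in WT lungs. This overlap was not counted over all tested genes, so it cannot be read as particular to these genes. At any fold, 23 and 21 of the 34 had an adjusted p under 0.1, against 49.2% and 46.7% of all tested genes. The median log2 fold change was -0.01 in WT and 0.11 in GSDMD-KO lungs, against -0.01 for all tested genes in each. These were whole-lung extracts, in which fewer cells of a type and less RNA per cell cannot be told apart.

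**Figure D1:**
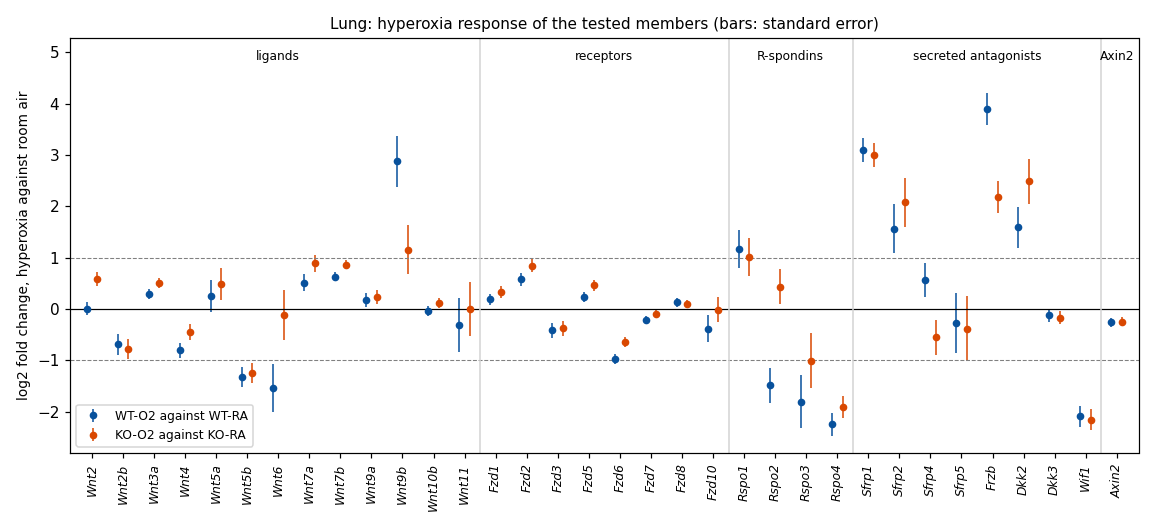
Log2 fold change between hyperoxia and room air in the lung (vertical axis, with its standard error) for the 34 tested genes, grouped by role, in WT (blue) and GSDMD-KO mice (orange). Dashed lines mark a fold change of 2 in either direction. Frzb at 3.90 and Sfrp1 at 3.09 in WT lie highest, Rspo4 at -2.24 lies lowest, and the receptors lie between the dashed lines.

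Of the ligands, Wnt9b, a canonical Wnt of developing epithelia, was at 0.209, 0.269 and 0.138 CPM in WT-RA lungs and at 2.25, 1.17 and 1.22 CPM in WT-O2 lungs, the former from only 4 to 8 counts each. The groups did not overlap, and the log2 fold change was 2.88 ± 0.50 (SE; edgeR, Benjamini-Hochberg adjusted p = 0.00035). In GSDMD-KO lungs it went from 0.239, 0.207 and 0.644 CPM to 0.595, 0.637 and 1.204 CPM, and the highest KO-RA lung lay above 2 of the 3 KO-O2 lungs. That change, 1.15 ± 0.48 on the log2 scale (edgeR, Benjamini-Hochberg adjusted p = 0.0696), was lost without KO-RA replicate 1 or 2 or KO-O2 replicate 3, with log2 fold changes of 0.93, 0.88 and 0.75. In GSDMD-KO lungs Wnt9b was called in 15 of 19 alternative analyses.

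Wnt5b, a β-catenin-independent Wnt, was at 7.47, 9.92 and 9.80 CPM in WT-RA and 3.99, 4.34 and 2.60 CPM in WT-O2 lungs. In KO-RA it was at 9.77, 7.76 and 8.65 CPM and in KO-O2 at 3.15, 3.89 and 3.98 CPM. Every hyperoxic lung lay below every room air lung, with log2 fold changes of -1.32 ± 0.19 in WT and -1.25 ± 0.19 in GSDMD-KO (edgeR, Benjamini-Hochberg adjusted p = 8.72e-05 and 0.000156). Wnt6 was a low ligand, at 0.336 to 0.826 CPM in WT-RA and 0.102 to 0.241 CPM in WT-O2 lungs, and its log2 fold change of -1.54 ± 0.47 passed the threshold (edgeR, Benjamini-Hochberg adjusted p = 0.0168). In GSDMD-KO lungs Wnt6 averaged 0.262 and 0.242 CPM in room air and hyperoxia.

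Several ligands moved by less than 2-fold. Wnt7b and Wnt7a, Wnts known from lung and vascular development, rose in both genotypes, with mean levels of Wnt7b of 15.1 CPM (WT-RA) and 23.3 CPM (WT-O2), then 13.0 CPM (KO-RA) and 23.6 CPM (KO-O2). In GSDMD-KO lungs Wnt7a passed 2-fold and was called in 2 of 19 alternative analyses, at most at a log2 fold change of 1.15. Wnt3a rose by 0.30 ± 0.10 in WT and 0.51 ± 0.10 in GSDMD-KO lungs on the log2 scale. Wnt4 fell by 0.80 ± 0.15 and 0.45 ± 0.15 and Wnt2b by 0.69 ± 0.20 and 0.78 ± 0.20 (edgeR, Benjamini-Hochberg adjusted p at most 0.0305 in each of these tests). Wnt2 averaged 21.3 and 21.5 CPM in WT-RA and WT-O2 lungs, and 17.2 and 25.9 CPM in KO-RA and KO-O2 lungs (log2 fold change in GSDMD-KO 0.59 ± 0.14, edgeR, Benjamini-Hochberg adjusted p = 0.00314). Wnt9a, Wnt10b, Wnt5a and Wnt11 did not pass the adjusted p in either genotype in the main analysis. Of these, Wnt11 had 19.0, 33.4 and 96.1 CPM in WT-RA lungs and Wnt5a 45.5, 63.6 and 131 CPM, where replicate 3 was highest for both. For Wnt5a every KO-O2 lung (112.1, 106.2 and 103.6 CPM) lay above every KO-RA lung (88.7, 68.2 and 73.7 CPM). Over 19 alternative analyses its log2 fold change ran from -0.033 to 0.801 in WT and from 0.4002 to 0.595 in GSDMD-KO lungs. In part of these analyses Wnt5a passed the adjusted p in WT and in GSDMD-KO lungs, and Wnt9a in GSDMD-KO lungs.

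None of the 8 tested Frizzled genes was called. Fzd6, a receptor known for planar polarity, was nearest to the 2-fold threshold: it fell from 64.7, 65.2 and 56.9 CPM in WT-RA to 33.4, 32.3 and 29.2 CPM in WT-O2 lungs, and from 47.5, 47.4 and 47.9 CPM in KO-RA to 27.1, 28.8 and 35.9 CPM in KO-O2 lungs. The groups were fully apart in both genotypes, with log2 fold changes of -0.98 ± 0.10 and -0.64 ± 0.10 (edgeR, Benjamini-Hochberg adjusted p = 3.64e-06 and 0.000198). In WT it passed 2-fold and was called in 2 of 19 alternative analyses, at most at -1.03. The untested Fzd9 was at 0.175, 0.0673 and 0.172 CPM in WT-RA and 0.205, 0.688 and 0.270 CPM in WT-O2 lungs, from 2 to 20 counts, and without the filter on low counts it was called in WT at a log2 fold change of 1.47 (edgeR, Benjamini-Hochberg adjusted p = 0.0884). Fzd2 averaged 71.1 CPM in WT-RA and 106 CPM in WT-O2 lungs. It averaged 68.0 CPM in KO-RA and 122 CPM in KO-O2 lungs, and rose by 0.58 ± 0.13 in WT and 0.85 ± 0.13 in GSDMD-KO on the log2 scale (edgeR, Benjamini-Hochberg adjusted p = 0.00251 and 0.000152). Fzd5 rose and Fzd3 fell in both genotypes by at most 0.46 in size (edgeR, Benjamini-Hochberg adjusted p at most 0.0778). In WT Fzd5 passed the adjusted p in 11 of 19 alternative analyses and Fzd3 in 17. Fzd7 passed the adjusted p in WT at -0.21 ± 0.08 (-0.10 in GSDMD-KO) and Fzd1 in GSDMD-KO at 0.33 ± 0.11 (0.19 in WT), and the interaction test called neither. Fzd8 and Fzd10 passed in neither genotype.

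The 4 R-spondins split. Rspo4 was at 6.11, 7.67 and 11.9 CPM in WT-RA and 1.74, 1.72 and 1.96 CPM in WT-O2 lungs, and at 9.33, 10.9 and 9.19 CPM in KO-RA and 2.90, 2.27 and 2.68 CPM in KO-O2 lungs. It fell with no overlap by 2.24 ± 0.22 in WT and 1.90 ± 0.22 in GSDMD-KO on the log2 scale (edgeR, Benjamini-Hochberg adjusted p = 2.58e-06 and 9.71e-06). Rspo3, known for its part in vascular development, was at 1.01, 1.24 and 1.58 CPM in WT-RA and 0.409, 0.310 and 0.372 CPM in WT-O2 lungs, a log2 fold change of -1.80 ± 0.52 (edgeR, Benjamini-Hochberg adjusted p = 0.0117). In KO-RA lungs Rspo3 was at 0.718, 0.655 and 0.882 CPM, and in KO-O2 lungs at 0.245, 0.814 and 0.0669 CPM, where replicate 2 lay within the room air range and no call was made. Over 19 alternative analyses the log2 fold change of Rspo3 in GSDMD-KO lungs ran from -2.24 to -0.508, and it was called in 1.

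Rspo2, an R-spondin of the lung mesenchyme, was at 1.89, 2.05 and 4.89 CPM in WT-RA and 1.13, 1.31 and 0.710 CPM in WT-O2 lungs (log2 fold change -1.49 ± 0.35, edgeR, Benjamini-Hochberg adjusted p = 0.00323). In KO-RA it was at 1.68, 1.69 and 1.39 CPM and in KO-O2 at 2.17, 1.88 and 2.38 CPM, so in GSDMD-KO mice the hyperoxic lungs were the higher ones, without a call. The WT-RA library with the highest Rspo2, replicate 3, also had the highest Wnt6, Wnt5a, Wnt11, Rspo4 and Wif1, the highest sum of 5 smooth muscle markers (1159 against 688 and 851 CPM) and the lowest sum of 4 mesothelial markers (21.1 against 69.9 and 111.0 CPM). The lung with the most smooth muscle transcripts had the most Rspo2, Wnt5a and Wnt11 in only 2 of the 4 groups each, and the most Wnt6 in 3. Without WT-RA replicate 3 the log2 fold change in WT was -0.91 for Rspo2, -1.10 for Wnt6 and 0.88 for Rspo1, and these 3 calls were lost. Rspo1 rose: it ran from 2.68 to 6.96 CPM in WT-RA against 7.19 to 15.1 CPM in WT-O2, and from 4.86 to 7.66 CPM in KO-RA against 8.96 to 16.4 CPM in KO-O2 lungs. Its log2 fold changes were 1.17 ± 0.37 and 1.02 ± 0.37 (edgeR, Benjamini-Hochberg adjusted p = 0.0265 and 0.0478). The WT call was also lost without WT-O2 replicate 2, at 0.91, and the GSDMD-KO call without KO-O2 replicate 2 or KO-RA replicate 1 or 2, at 0.73, 0.93 and 0.90. Over 19 alternative analyses, Rspo1 was called in 17 in WT and in 13 in GSDMD-KO lungs.

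Among the antagonists Frzb, also known as Sfrp3, had the largest fold change in WT lungs of the 34 genes of this family that were tested. It was at 0.314, 0.235 and 0.378 CPM in WT-RA lungs and at 4.47, 4.64 and 4.90 CPM in WT-O2 lungs. In GSDMD-KO mice it was at 0.649, 0.414 and 0.271 CPM in room air and 1.68, 2.73 and 1.71 CPM in hyperoxia. Hyperoxic and room air lungs were far apart in both genotypes, by 3.90 ± 0.32 and 2.18 ± 0.31 on the log2 scale (edgeR, Benjamini-Hochberg adjusted p = 3.4e-07 and 6.92e-05).

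Sfrp1, a Wnt-binding SFRP, was at 7.67, 9.41 and 7.01 CPM in WT-RA and 74.1, 64.4 and 67.3 CPM in WT-O2 lungs. In KO-RA lungs it was at 4.84, 6.28 and 7.90 CPM and in KO-O2 lungs at 35.4, 67.8 and 49.0 CPM. It rose about as much in both genotypes, with log2 fold changes of 3.09 ± 0.23 and 3.00 ± 0.24 (edgeR, Benjamini-Hochberg adjusted p = 1.24e-06 and 2.08e-06). Per kb of exon Sfrp1 went from 1.84 to 15.7 in WT lungs, which put its WT-O2 mean above those of Sfrp2 (13.9) and Wif1 (1.76).

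Sfrp2 was at 8.97, 15.7 and 5.64 CPM in WT-RA and 18.5, 42.4 and 29.2 CPM in WT-O2 lungs, and at 7.59, 9.27 and 13.1 CPM in KO-RA and 33.3, 64.1 and 29.5 CPM in KO-O2 lungs. It rose without overlap by 1.57 ± 0.47 in WT and 2.08 ± 0.48 in GSDMD-KO on the log2 scale (edgeR, Benjamini-Hochberg adjusted p = 0.0263 and 0.00784). Dkk2, a Dickkopf that binds the LRP co-receptors, was at 0.470, 1.25 and 1.02 CPM in WT-RA and 2.56, 2.19 and 3.53 CPM in WT-O2 lungs. In GSDMD-KO mice Dkk2 went from 0.381, 0.280 and 0.641 CPM to 2.20, 3.73 and 1.43 CPM. Its log2 fold changes were 1.59 ± 0.40 and 2.49 ± 0.44, with no overlap in either genotype (edgeR, Benjamini-Hochberg adjusted p = 0.00566 and 0.000503).

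Wif1 was the antagonist that fell. It was at 15.4, 13.5 and 25.9 CPM in WT-RA and 4.30, 3.99 and 4.56 CPM in WT-O2 lungs, and at 20.2, 16.8 and 20.2 CPM in KO-RA and 3.71, 4.60 and 4.55 CPM in KO-O2 lungs. The fall was by 2.09 ± 0.21 in WT and 2.15 ± 0.21 in GSDMD-KO on the log2 scale, with no overlap (edgeR, Benjamini-Hochberg adjusted p = 3.4e-06 and 3.02e-06). Dkk3, the most abundant of the 41, averaged 151 and 138 CPM in WT and 174 and 155 CPM in GSDMD-KO lungs, and neither it nor Sfrp4 or Sfrp5 passed the adjusted p. Axin2, the feedback scaffold that canonical signaling induces, was at 60.1, 62.4 and 66.0 CPM in WT-RA and 50.7, 58.9 and 48.3 CPM in WT-O2 lungs. It fell slightly in both genotypes, by 0.26 ± 0.09 and 0.25 ± 0.09 on the log2 scale (edgeR, Benjamini-Hochberg adjusted p = 0.0352 and 0.0427), and this passed the adjusted p in 17 and 15 of 19 alternative analyses.

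**Figure D2:**
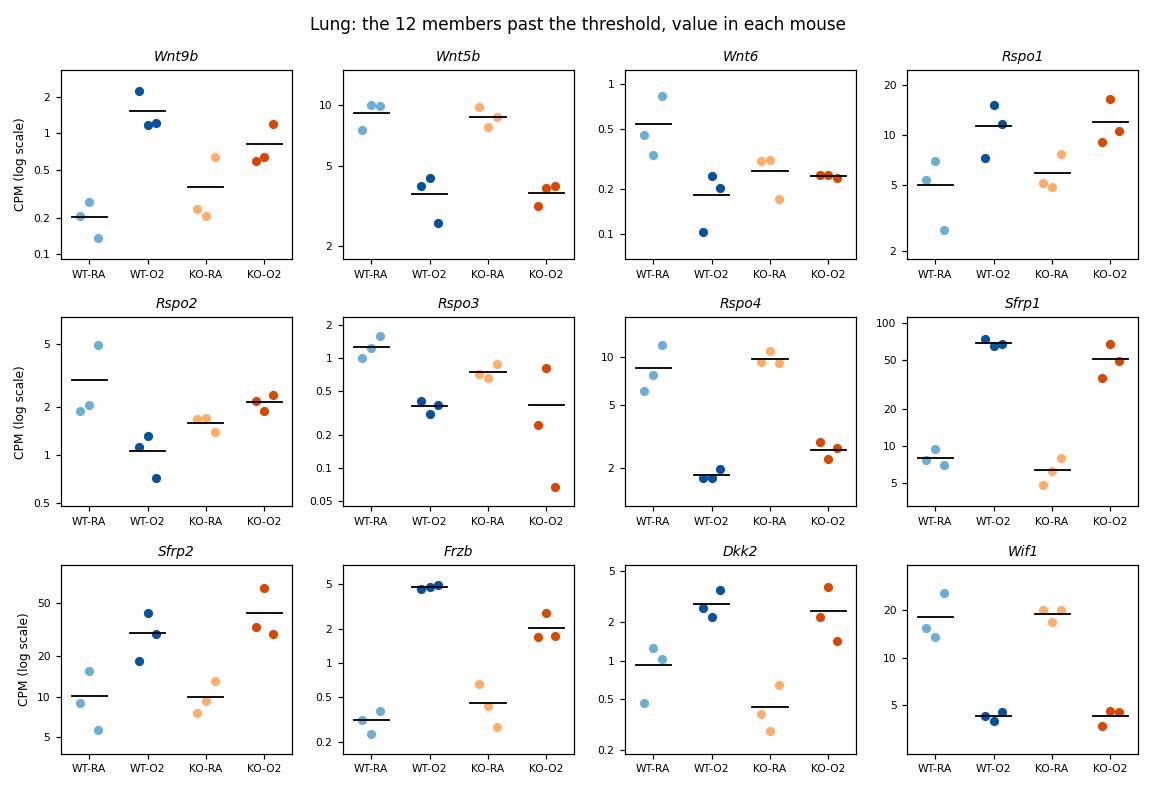
CPM in each lung (vertical log axis) of the 12 genes called in WT lungs, by group, with a bar at the mean of 3 mice. Frzb, Sfrp1, Sfrp2, Dkk2 and Rspo1 lie higher in both hyperoxic groups, and Wif1, Rspo4 and Wnt5b lie lower in both. In the main analysis Rspo2, Rspo3 and Wnt6 were called in WT but not in GSDMD-KO lungs, with no interaction called by edgeR.

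Promoter sequences were read from RefSeq (GRCm38.p6), which gave a sequence for 29 of the 41 genes. To show the start sites of genes called in both genotypes, printed here are the 250 bases before the start of 2 that rose and 1 that fell, all on the plus strand: Sfrp2 (chr3:83766071-83766320), Dkk2 (chr3:132085042-132085291) and Rspo4 (chr2:151842677-151842926). Capitals mark matches to 3 motifs searched on both strands: the TCF/LEF motif, written as CTTTGAA, or it may be CTTTGAT, or else it is CTTTGTA, or lastly it is CTTTGTT, the AP-1 motif TGANTCA and the TATA box TATAAA.
Sfrp2: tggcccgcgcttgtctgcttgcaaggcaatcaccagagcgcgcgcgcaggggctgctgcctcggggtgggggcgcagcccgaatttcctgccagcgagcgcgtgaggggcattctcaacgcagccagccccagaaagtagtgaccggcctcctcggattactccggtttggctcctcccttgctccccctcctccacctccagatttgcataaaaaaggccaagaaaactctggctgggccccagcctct
Dkk2: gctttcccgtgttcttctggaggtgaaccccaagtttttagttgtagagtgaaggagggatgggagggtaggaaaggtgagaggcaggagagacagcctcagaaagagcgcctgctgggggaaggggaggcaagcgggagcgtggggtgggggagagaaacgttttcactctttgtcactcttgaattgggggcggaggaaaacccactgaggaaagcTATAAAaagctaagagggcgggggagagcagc
Rspo4: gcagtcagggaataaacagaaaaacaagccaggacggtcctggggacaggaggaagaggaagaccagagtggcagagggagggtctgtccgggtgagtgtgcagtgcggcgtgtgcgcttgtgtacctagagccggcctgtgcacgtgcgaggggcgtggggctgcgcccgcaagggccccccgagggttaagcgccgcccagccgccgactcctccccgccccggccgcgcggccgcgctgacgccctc

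The Dkk2 window holds a TATA match 32 to 27 bases before the start, and those of Sfrp2 and Rspo4 hold none of the 3 motifs. Rspo4 and Sfrp2 are richer in G and C (69.6% and 63.6%, with 24 and 16 CpG) than Dkk2 (55.6%, 7 CpG). Over the gene family, a TCF/LEF match was found for 4 of the 29 genes (Wnt5b, Wnt11, Fzd7 and Dkk1), against 14.8% of all 32817 promoters. An AP-1 match was found for Wnt5b alone (6.75% of all promoters) and a TATA match for 5, Dkk1, Dkk2, Fzd1, Wif1 and Wnt11 (12.4% of all).

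Mesothelial transcripts moved with part of this pattern. The mesothelium is the sheet of cells that covers the lung surface, and the sum of its 4 markers, Msln, Upk3b, Lrrn4 and Wt1, was 21.1 to 111.0 CPM in WT-RA, 117 to 310 CPM in WT-O2, 72.4 to 129 CPM in KO-RA and 204 to 415 CPM in KO-O2 lungs. Of the 4 markers 2 were called higher in hyperoxia in each genotype. In all 4 groups the lung with the most mesothelial transcripts also had the most Sfrp2 and the most Rspo1. Per 100 CPM of these markers, the group medians of Rspo1 were 7.64 CPM for WT-RA and 4.87 for WT-O2, and 6.71 for KO-RA and 4.39 for KO-O2, so relative to the markers Rspo1 was lower in hyperoxia, with no overlap between exposures. For Sfrp2 the medians were 14.1, 13.7, 10.3 and 15.4 CPM per 100 CPM of markers, with overlap between WT-RA and WT-O2 and none between KO-RA and KO-O2. For Sfrp1 they were 11.0, 27.4, 6.55 and 17.4, apart in GSDMD-KO (6.15 to 8.67 against 16.3 to 23.3) and overlapping in WT lungs. For Frzb they were 0.449, 1.99, 0.571 and 0.810, with overlap in both genotypes. For Dkk2 they were 1.13, 1.44, 0.499 and 0.899, overlapping in WT and apart in GSDMD-KO lungs. For Wnt9b they were 0.300, 0.495, 0.324 and 0.291, with overlap in both genotypes. Of 5 smooth muscle markers 2 were called higher in each genotype and their sum was 1437 to 1580 CPM in WT-O2 against 688 to 1159 CPM in WT-RA lungs, and, with overlap, 773 to 1449 CPM in KO-O2 against 685 to 773 CPM in KO-RA lungs. Of 6 fibroblast markers 2 were called higher and 1 lower in each genotype. At any fold 4 of the 6 had an adjusted p under 0.1 and were higher, and 2 were lower, in each genotype. In WT lungs the marker called lower was Pdgfra, at -2.2 ± 0.21 on the log2 scale. Tcf21 also fell in WT lungs, at -0.76 ± 0.131 and without a call, while Dcn was called higher at 1.502 ± 0.194. Markers of other cells also moved with the genes that fell, such as Wif1, Rspo4, Wnt5b and Fzd6. The sum of 5 alveolar type 2 markers was 18546 to 20730 CPM in WT-RA and 12811 to 15628 CPM in WT-O2, and 19133 to 21140 CPM in KO-RA and 12616 to 14910 CPM in KO-O2 lungs, with no overlap and none of the 5 called. The sum of 5 endothelial markers was 3322 to 3715 CPM in WT-RA and 2558 to 2962 CPM in WT-O2 lungs, and 3026 to 3124 CPM in KO-RA and, with overlap, 2335 to 3055 CPM in KO-O2 lungs. Of these 5, Tek, a vascular receptor, was called lower in both genotypes, at -2.47 ± 0.12 and -2.14 ± 0.12. The part of all these cells in the changes of the Wnt genes was not tested.

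**Figure D3:**
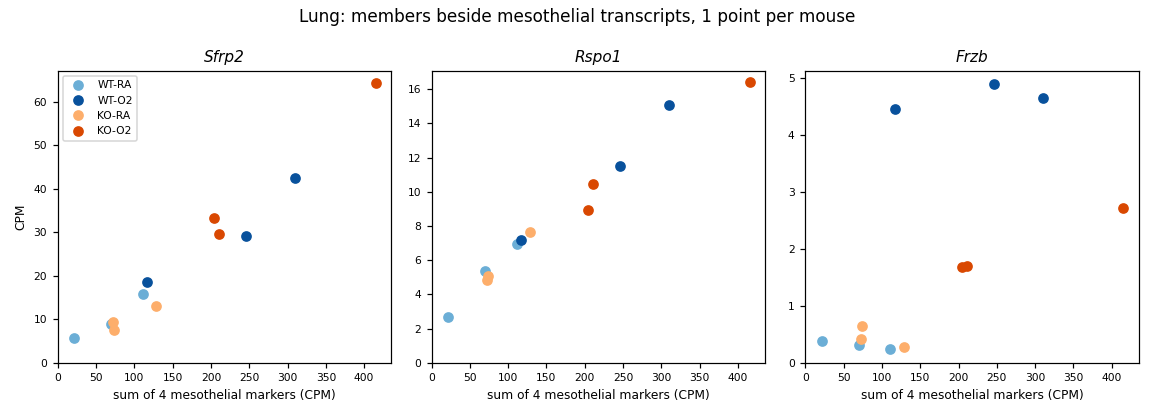
CPM of Sfrp2, Rspo1 and Frzb (vertical axes) against the summed CPM of 4 mesothelial markers in the 12 lungs (horizontal axis), coloured by group. In each group the lung with the most markers has the most Sfrp2 and Rspo1, while Frzb lies at 4.47 to 4.90 CPM in the WT-O2 lungs, whose marker sums range from 117 to 310 CPM.

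The effect of genotype was compared next. In hyperoxic lungs (KO-O2 against WT-O2) edgeR called 0 of the 34 genes, where it called 0.0238% of all 16819 tested genes. At an unadjusted p under 0.05 there were 7 of the 34, against 1045 of all tested genes. DESeq2 called 1, Frzb. In room air (KO-RA against WT-RA) edgeR and DESeq2 called 0, where edgeR called 0.137% of all genes. At an unadjusted p under 0.05 there were 6, against 1762 of all genes. The interaction is the difference between the hyperoxia responses of the 2 genotypes. It called 0 with edgeR, where 0.00595% of all genes were called, and 1, Rspo2, with DESeq2. At an unadjusted p under 0.05 it had 6, against 1130 of all genes. Frzb was lower in KO-O2 than in WT-O2 lungs in 3 of 3 mice, without overlap, at a log2 difference of -1.196 ± 0.26 (edgeR, Benjamini-Hochberg adjusted p = 0.298; DESeq2, 0.0130). With sex as a covariate this difference was -1.05 (edgeR, Benjamini-Hochberg adjusted p = 0.483), and its interaction value was -1.72 ± 0.46 (edgeR, Benjamini-Hochberg adjusted p = 0.42). Rspo2 had an interaction value of 1.92 ± 0.48 on the log2 scale (edgeR, Benjamini-Hochberg adjusted p = 0.389; DESeq2, 0.0615), and 1.34 without WT-RA replicate 3 (edgeR, adjusted p = 0.198). In room air Fzd6 had the smallest p, at a log2 difference of -0.39 ± 0.10 between KO-RA and WT-RA (edgeR, Benjamini-Hochberg adjusted p = 0.152).

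Other genes of the pathway were read from lists written for this purpose. Of 16 co-receptors and genes of receptor turnover and release, 3 were called in WT lungs: Ror2, a receptor for Wnt5a, was higher by 1.25 ± 0.25, and Lgr5, an R-spondin receptor, and Notum, an enzyme that inactivates Wnts, were lower by 1.16 ± 0.23 and 1.39 ± 0.15 on the log2 scale. In GSDMD-KO lungs 1 of these 16 was called, Lgr5 at -1.16 ± 0.21, while Notum was at -0.99 ± 0.15 and Ror2 at 0.42 ± 0.25. Of 21 intracellular transduction genes 1 was called in each genotype, Lef1, the transcriptional partner of β-catenin, at -1.68 ± 0.12 in WT and -1.50 ± 0.12 in GSDMD-KO lungs. Of 15 feedback and target genes, 2 were higher and 3 lower in WT and 2 higher and 2 lower in GSDMD-KO lungs. The higher ones were Ccnd1, cyclin D1, at 2.14 ± 0.10 and 1.87 ± 0.09, and Myc at 1.60 ± 0.20 and 1.25 ± 0.20, and the lower ones were Lef1, Lgr5 and, in WT, Notum. The members of the target list thus moved in both directions, and its median log2 fold change was -0.24 in WT and -0.23 in GSDMD-KO lungs. Of 7 related genes outside the 41, 4 were tested and none was called.

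In the retina 32 of the 41 genes passed the filter. Wnt1, Wnt2, Wnt3, Wnt3a, Wnt6, Wnt8b, Wnt10b, Rspo3 and Dkk1 did not, and Wnt2 and Wnt3a had at most 3 counts in every retina. Per kb of exon Dkk3 was highest by far, at 102 CPM per kb in WT-RA and 75.9 to 94.5 in the other groups, followed by Frzb at 7.11 (6.02 to 8.36 over the 4 groups) and Axin2 at 3.70 (3.32 to 3.70). Fzd10, at 2.96 (2.19 to 3.35), Fzd5, at 1.77 (1.67 to 2.08), and Fzd1, at 1.07 CPM per kb (0.944 to 1.32), led the receptors. Wnt2b, a ligand of the eye margin, at 1.43 (1.43 to 1.84), and Wnt5b at 1.04 CPM per kb (0.706 to 1.25) led the ligands once Wnt7b is set aside, whose mean of 2.27 in WT-RA rested on 2 libraries. Rspo4 at 0.970 (0.510 to 0.970) and Rspo2 at 0.443 CPM per kb (0.399 to 0.506) were above Rspo1 in the other 3 groups, where Rspo1 was at 0.159 to 0.353, while its WT-RA mean of 1.09 rested mainly on 1 of the same libraries. Sfrp1, at 2.92 in WT-RA, rested on them too, and in the hyperoxic groups its means of 0.614 and 0.630 CPM per kb lay below those of Sfrp2 (1.26 and 1.32) and Sfrp5 (0.831 and 0.972). Fzd10, Dkk3 and Frzb stood at 0.306, 44.9 and 0.0956 CPM per kb in WT-RA lungs, whose table was scaled separately.

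No member was called in the retina. In WT edgeR called 0 of the 32, where it called 2.04% of all 19173 tested genes, and DESeq2 called 2, Rspo1 and Sfrp1. At an unadjusted p under 0.05 there were 4 of the 32, against 3332 of all tested genes. In GSDMD-KO retinas edgeR and DESeq2 called 0, where edgeR called 2.19% of all genes. At an unadjusted p under 0.05 there were 6, against 3890 of all genes. At any fold 1 of the 32 had an adjusted p under 0.1 in WT, Dkk3, against 5.16% of all genes, and 0 in GSDMD-KO, against 7.82%. The median log2 fold change of the 32 was -0.10 in WT and -0.21 in GSDMD-KO retinas, against 0.00 for all tested genes.

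**Figure D4:**
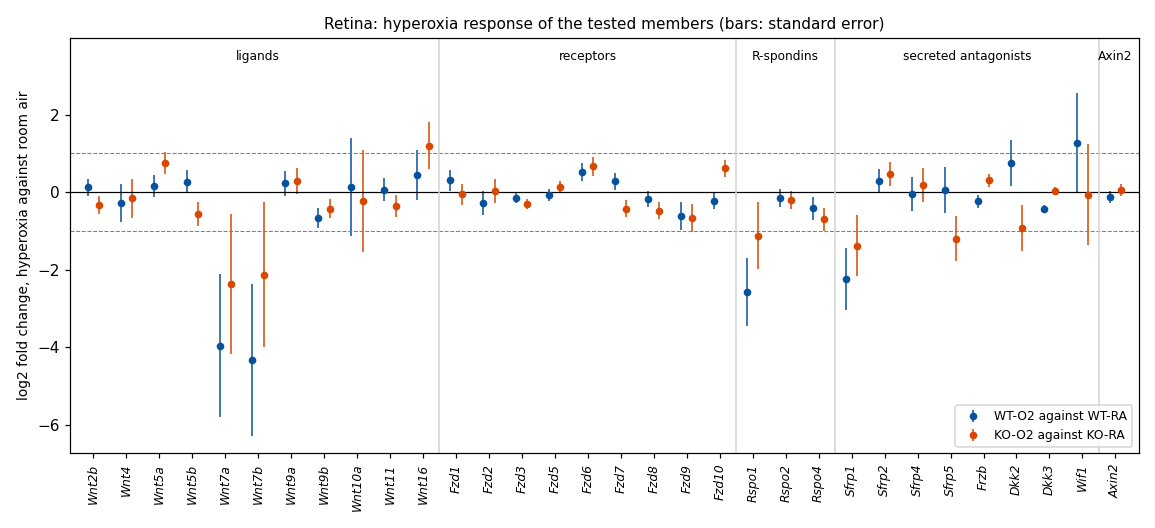
Log2 fold change between hyperoxia and room air in the retina (vertical axis, with its standard error) for the 32 tested genes, grouped by role, in WT (blue) and GSDMD-KO mice (orange), with dashed lines at a fold change of 2. Most genes lie within the dashed lines. Among those that lie beyond them in either direction, Wnt7a, Wnt7b, Rspo1 and Sfrp1 lie below with long error bars.

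Dkk3 was at 364, 310 and 358 CPM in WT-RA and 255, 259 and 251 CPM in WT-O2 retinas. The groups did not overlap, and it fell by 0.43 ± 0.10 on the log2 scale (edgeR, Benjamini-Hochberg adjusted p = 0.0396). In GSDMD-KO retinas it was at 330, 297 and 309 CPM in room air and 289, 315 and 348 CPM in hyperoxia, a log2 fold change of 0.03. The interaction value for Dkk3 was 0.46 ± 0.14 (edgeR, Benjamini-Hochberg adjusted p = 0.279; DESeq2, 0.0195). The fall in WT kept an adjusted p under 0.1 in 14 of 20 alternative analyses. It was -0.44 with sex as a covariate and -0.39 without WT-RA replicate 1 (edgeR, Benjamini-Hochberg adjusted p = 0.173 and 0.119). The sum of 4 Mueller glia markers was 1989 to 2800 CPM in WT-RA and 1422 to 1689 CPM in WT-O2, and 2122 to 2455 CPM in KO-RA and 1745 to 2005 CPM in KO-O2 retinas, and its part in the Dkk3 levels was not tested. Frzb, abundant here, was at 29.2, 19.8 and 19.98 CPM in WT-RA and 23.0, 17.8 and 17.7 CPM in WT-O2 retinas. In GSDMD-KO mice Frzb was at 20.2, 23.6 and 22.1 CPM in room air and, without overlap, at 28.2, 25.4 and 27.6 CPM in hyperoxia, and it passed the test in neither genotype (log2 fold changes -0.24 and 0.30, edgeR, Benjamini-Hochberg adjusted p = 0.481 and 0.318). Axin2 averaged 20.4, 18.7, 18.3 and 19.1 CPM in the 4 groups and did not pass either.

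The largest differences in the retina were in libraries with lens transcripts. Wnt7b was at 0.109, 7.66 and 25.6 CPM in WT-RA and 0.906, 0.468 and 0.267 CPM in WT-O2 retinas. In GSDMD-KO mice it was at 0, 0.0757 and 6.20 CPM in room air and 0.535, 0.247 and 0.642 CPM in hyperoxia. Its 3 high values were in the 3 libraries with 581, 1948 and 1042 CPM of the lens markers Lim2, Bfsp1, Bfsp2 and Mip, and in all 4 groups the retina with the most lens transcripts had the most Wnt7b and the most Wnt7a. Sfrp1 was at 1.99, 8.81 and 27.4 CPM in WT-RA and 2.33, 3.20 and 2.52 CPM in WT-O2 retinas, and at 3.86, 4.04 and 13.7 CPM in KO-RA and 2.90, 2.10 and 3.27 CPM in KO-O2 retinas.

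Rspo1 was at 0.323, 0.996 and 5.03 CPM in WT-RA and 0.291, 0.442 and 0.292 CPM in WT-O2 retinas. In KO-RA it was at 0.408, 0.393 and 1.25 CPM and in KO-O2 at 0.431, 0.302 and 0.189 CPM, and the retina with the most lens transcripts had the most Rspo1 in 2 of the 4 groups, both in room air. The highest value was in WT-RA replicate 3, which also held 121.5 CPM of 5 cornea and ciliary body markers against 16.8 and 5.77 in the other WT-RA retinas. It held 32.1 CPM of 6 fibroblast markers against 7.67 and 9.31. In other groups high sums of these markers came without high Rspo1. WT-O2 replicate 2 held 119.8 CPM of the cornea and ciliary body markers with Rspo1 at 0.442 CPM. KO-RA replicate 2 held 55.2 CPM of them and 27.2 CPM of the fibroblast markers with Rspo1 at 0.393 CPM. The part of each of these tissues was not tested. In WT the log2 fold changes were -4.33 for Wnt7b, -2.24 ± 0.80 for Sfrp1 and -2.57 ± 0.88 for Rspo1 (edgeR, Benjamini-Hochberg adjusted p = 0.295, 0.182 and 0.159). Without the 3 libraries they turned to 2.16, 0.42 and 0.13 (edgeR, Benjamini-Hochberg adjusted p = 0.527, 0.572 and 0.984), with 1 WT-RA retina left whose spread was assumed to be that of the other groups. In GSDMD-KO retinas Wnt7b turned from -2.13 to 3.64, while Sfrp1 went from -1.38 to -0.51 and Rspo1 from -1.12 to -0.38. Of KO-RA retinas, replicate 3 also had 8.92 CPM of Sfrp5 against 1.95 and 1.89, beside 1981 CPM of 5 pigment epithelium markers against 283 and 307.

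**Figure D5:**
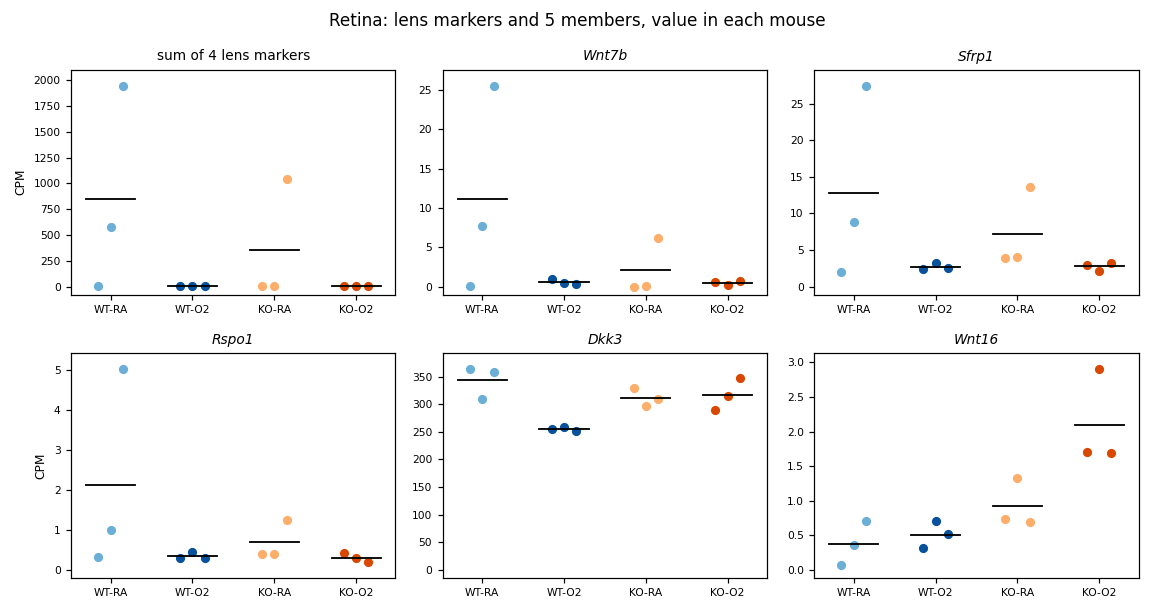
CPM in each retina (vertical axes) of the sum of 4 lens markers and of Wnt7b, Sfrp1, Rspo1, Dkk3 and Wnt16, by group, with a bar at the mean of 3 mice. Wnt7b, Sfrp1 and Rspo1 are high in the room air libraries that hold lens transcripts, Dkk3 lies at 251 to 259 CPM in WT-O2 and at 310 to 364 CPM in WT-RA, and Wnt16 is highest in KO-O2.

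Vessel growth is one setting in which Wnt signaling is known in the retina, and summed endothelial transcripts were higher after hyperoxia: the sum of 5 endothelial markers was 80.0 to 96.8 CPM in WT-RA and 152 to 174 CPM in WT-O2, and 97.7 to 108 CPM in KO-RA and 127 to 141 CPM in KO-O2 retinas. All 5 had a positive log2 fold change in WT, with 2 called. In GSDMD-KO retinas 3 of the 5 were positive and 0 were called. Over the same samples Fzd6 was at 3.46, 2.16 and 3.95 CPM in WT-RA and 4.38, 4.12 and 5.15 in WT-O2, and at 3.00, 3.32 and 3.01 in KO-RA and 4.49, 6.21 and 4.19 CPM in KO-O2 retinas. Every hyperoxic retina lay above those in room air of its genotype, and the log2 fold changes of 0.51 ± 0.24 and 0.67 ± 0.24 missed the threshold (edgeR, Benjamini-Hochberg adjusted p = 0.295 and 0.146). Fzd10 had 0.61 ± 0.22 and Wnt5a 0.75 ± 0.29 in GSDMD-KO retinas (edgeR, Benjamini-Hochberg adjusted p = 0.144 and 0.169), with overlapping groups. The part of endothelial cells in these values was not tested.

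Between genotypes, edgeR called 0 of the 32 genes in hyperoxic retinas, where it called 0.292% of all 19173 genes, and DESeq2 called 1, Wnt16. At an unadjusted p under 0.05 there were 5 of the 32, against 2412 of all genes. Wnt16, a Wnt with low expression in the retina, was at 0.314, 0.701 and 0.514 CPM in WT-O2 and 1.70, 2.90 and 1.69 CPM in KO-O2 retinas, apart by 2.05 ± 0.63 on the log2 scale (edgeR, Benjamini-Hochberg adjusted p = 0.195; DESeq2, 0.0393). It was at 0.0655, 0.358 and 0.703 CPM in WT-RA and 0.733, 1.33 and 0.689 CPM in KO-RA retinas. In room air edgeR and DESeq2 called 0, where edgeR called 0.00522% of all genes. At an unadjusted p under 0.05 there were 2, against 2427 of all genes. The interaction called 0 with edgeR, where 0.00522% of all genes were called, and 1, Dkk3, with DESeq2. At an unadjusted p under 0.05 it had 4, against 2035 of all genes.

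Of the other pathway genes tested in the retina, 1 of 15 co-receptor and release genes was called, Kremen2, a Dickkopf receptor, in GSDMD-KO mice. It averaged 2.15 and 3.97 CPM in WT and 2.71 and 6.10 CPM in GSDMD-KO retinas in room air and hyperoxia, log2 fold changes of 0.88 ± 0.22 and 1.16 ± 0.22 (edgeR, Benjamini-Hochberg adjusted p = 0.0612 and 0.0177), and the interaction did not call it (0.29 ± 0.31, edgeR, Benjamini-Hochberg adjusted p = 0.777). Kremen1 was higher in WT by 0.62 ± 0.17 (edgeR, Benjamini-Hochberg adjusted p = 0.0848). None of the 21 transduction genes, 15 feedback and target genes or 5 tested related genes was called in either genotype. Scaling by library totals alone shifted the median gene by 0.23 on the log2 scale in WT retinas, and Dkk3 then stood at -0.19 (edgeR, Benjamini-Hochberg adjusted p = 0.307).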

How the data were processed

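RNA from 12 lungs and 12 retinas was sequenced, and the labels' genotype and exposure define the groups of 3 mice. The authors assigned reads to transcripts with kallisto, summed them per gene with tximport and deposited estimated counts (expected counts), not divided by library size. The build is mm10 per the labels and GRCm39 in the study's methods. Symbols, positions and exon lengths were taken here from GENCODE M21 (GRCm38) by Ensembl identifier. Estimated counts of genes with shared sequence depend on how kallisto divided their reads.

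After rounding, the counts entered edgeR 4.0.16 (R 4.3.3): TMM, filterByExpr by group, all 12 samples of a tissue in 1 quasi-likelihood fit (robust), Benjamini-Hochberg adjustment over all tested genes. The steps were tested on simulated data. Each SE was computed as the size of the log2 fold change divided by the root of its F statistic. The interaction was called at an adjusted p under 0.1 alone. Values with ± are log2 fold changes with their SE, and CPM are per mouse or means of 3 mice. A sample was counted as male above 20 CPM summed over 4 Y-linked genes. Alternatives were DESeq2 1.42.0, other scaling, filters and fold thresholds, fits on the compared groups only, sex as a covariate, leaving out each sample, and, added after seeing the data, leaving out 3 retinas with lens transcripts. Mice are the replicates, and 3 per group, more than depth, limit the precision.

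The 41 genes and all lists were chosen with earlier results of these data known. Genes given in full are those called in a tissue, at most 10 by smallest p, and beside them the 3 most abundant per role. Other genes were named after their values were seen, or as the smallest p of their list.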

Additional observations from a re-analysis of the deposited data

Results flagged for a closer look

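Some genes had log2 fold changes of opposite sign in the lung and the retina, with no overlap between the exposure groups in either tissue. The difference between tissues was not tested, since their tables were made separately. In GSDMD-KO mice the log2 fold changes in lung and retina were 2.49 and -0.93 for Dkk2, 3.00 and -1.38 for Sfrp1, and -0.64 and 0.67 for Fzd6. In WT mice they were -0.98 and 0.51 for Fzd6 and 2.88 and -0.66 for Wnt9b. Each lung value passed the adjusted p in edgeR with Benjamini-Hochberg adjustment (at most 0.000503) and no retina value did (0.146 to 0.414). Dkk2 was low in the retina, with at most 19.4 counts in any library. In the retina the KO-RA value of Sfrp1 was highest in the library with lens transcripts, and without the 3 such libraries its log2 fold change was -0.51. The ages, oxygen levels and time after exposure also differ between the tissues and cannot be told apart from them.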

How the results depend on the processing

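No paired analysis was possible because the labels give no replicate numbers shared between groups. The counts of called genes moved by over 1.5 times only as follows. Without a fold threshold the lung counts were 23 in WT and 21 in GSDMD-KO and the retina count in WT was 1, and at a fold of at least 1.5 the GSDMD-KO lung count was 15. DESeq2 called 1 gene for genotype in hyperoxic lungs (Frzb), 1 for the lung interaction (Rspo2), 2 in WT retinas (Rspo1 and Sfrp1), 1 for genotype in hyperoxic retinas (Wnt16) and 1 for the retina interaction (Dkk3). Leaving out 1 sample at a time gave 10 to 13 called genes in WT lungs, 7 to 9 in GSDMD-KO lungs, 0 to 2 in WT retinas and 0 to 1 for genotype in hyperoxic retinas, the highest retina counts being those without WT-RA replicate 1, and 0 in the other comparisons. Over 440 alternative results for the 21 lung fold changes called, 426 kept direction and call, 14 lost the call and 0 changed sign. Those lost were of Rspo1, Rspo2, Wnt6 and, in GSDMD-KO, Wnt9b. The 440 include results without a fold threshold and at a fold of at least 1.5. These reused the main fit and could lose neither call nor direction. Scaling by library totals alone raised the calls over all genes in WT retinas from 391 to 777, shifted the median gene by 0.17 between KO-RA and WT-RA retinas, where the share of calls that were higher went from 0% of 1 to 81.4% of 43, and by -0.19 in the retina interaction. Genes under 1 CPM are limited by depth.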
